A study of Homo sapiens with 6 samples.

Results

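The genes described here are 57 interferon-stimulated genes and interferon regulators, taken by name from a table of 62700 gene rows. They were measured in A673, an established human line of Ewing sarcoma, a tumour whose oncoprotein EWS-FLI1 joins part of EWSR1 to the DNA-binding domain of the ETS factor FLI1. RNA from A673 EWS-FLI1 knockout cells (3 libraries) was compared with RNA from A673 EWS-FLI1 wildtype cells, the parental control (3 libraries), both grown in DMEM with 10% fetal bovine serum. By its title the study asked how the fusion affects alternative splicing, and the values deposited are estimated counts per gene. No interferon or other agent is named in the labels for either group. Whether the knockout is a single clone or a pool, and whether replicates were separate cultures, is not stated in the labels, so a p-value here reflects library-to-library spread, which may be technical, and a difference between clones cannot be told apart from the loss of the fusion.

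Interferons are secreted alarm signals against viruses. Type I interferons bind the receptor pair IFNAR1 and IFNAR2, whose kinases JAK1 and TYK2 activate STAT2. With IRF9 it takes part in a complex that binds interferon response elements in the promoters of antiviral genes. Type II interferon binds IFNGR1 and IFNGR2 and acts through JAK1 and JAK2, with IRF1 as a major target that carries the response on. SOCS1, SOCS3 and USP18 are induced in turn and dampen signalling at the receptors. Many tumour cells keep a tonic level of these genes without added interferon.

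Libraries held 301605666 to 310465330 estimated counts in knockout cells and 324069161 to 342624492 in parental cells. Levels below are CPM, counts relative to the TMM-scaled library size, log2 fold changes set knockout over parental and carry a standard error (SE), and a gene is said to have risen or fallen when its edgeR quasi-likelihood p, adjusted over all 28485 tested genes, was under 0.05. A count per gene adds fusion and normal transcripts, so the values of EWSR1 (log2 fold change -0.26, SE 0.047) and FLI1 (50.8 to 54.8 CPM in knockout and 39.6 to 41.9 CPM in parental libraries) do not test whether the fusion was lost. Of 8 markers of Ewing sarcoma cells, among them PRKCB, NR0B1 and NKX2-2, 8 fell (median log2 fold change -4.65), against 37.5% of all tested genes. The 8 markers summed to 759 to 808 CPM in knockout and 3299 to 3386 CPM in parental libraries. Mitochondrial transcripts took 2.38% to 3.09% of counts in knockout and 3.63% to 3.84% in parental libraries.

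Most of the interferon genes were higher in the knockout cells. IRF8, a factor of myeloid and B cells, held at most 6 counts in any library and was not tested. Of the other 56, 48 (85.7%) rose, 3 fell and 5 did not pass. The background is high, since 73.8% of all tested genes passed, 36.3% as higher and 37.5% as lower. Beyond 2-fold, 39 interferon genes (69.6%) rose and 1 fell (a log2 fold change past 1 or -1), against 21.8% and 20.3% of all tested genes. Their median log2 fold change was 1.89, with quartiles of 0.92 and 2.85, while that of all tested genes was -0.06, with quartiles of -0.80 and 0.83. Libraries of the genotypes did not overlap in 52 of the 56, or 92.9%, against 76.7% of all tested genes. The shares of all tested genes are also the background for each role group below. A lack of overlap in a given gene is thus common and is stated below as description. With libraries scaled by total count only, which moves the median of all genes by -0.42, 47 rose and 6 fell, and the median of the interferon genes was 1.47. Over all tested genes, risen genes made up 33.0% of all calls under that scaling, 40.5% with upper quartile factors, and 49.1% with TMM.

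**Figure D1:**
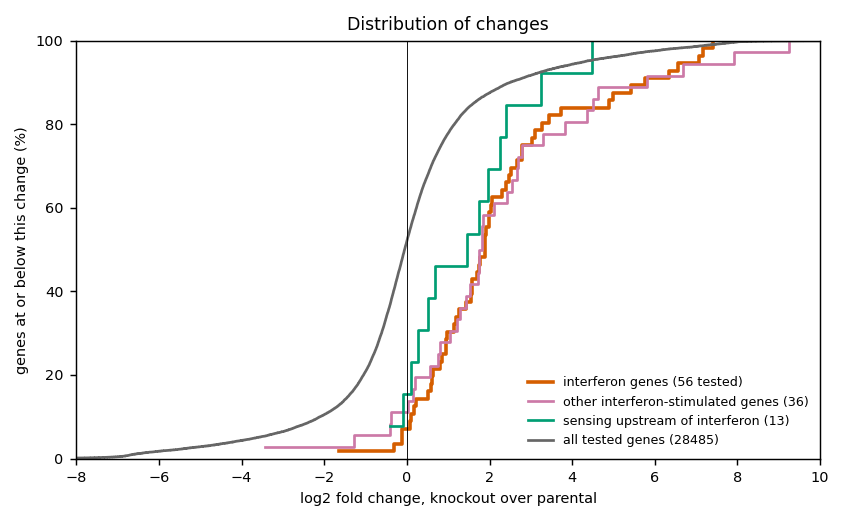
Cumulative share of genes (vertical axis, percent) at or below each log2 fold change, knockout over parental (horizontal axis), for the 56 tested interferon genes, 36 other interferon-stimulated genes, 13 genes of sensing upstream of interferon and all 28485 tested genes. The interferon genes lie to the right of all tested genes, with medians of 1.89 and -0.06.

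**Figure D2:**
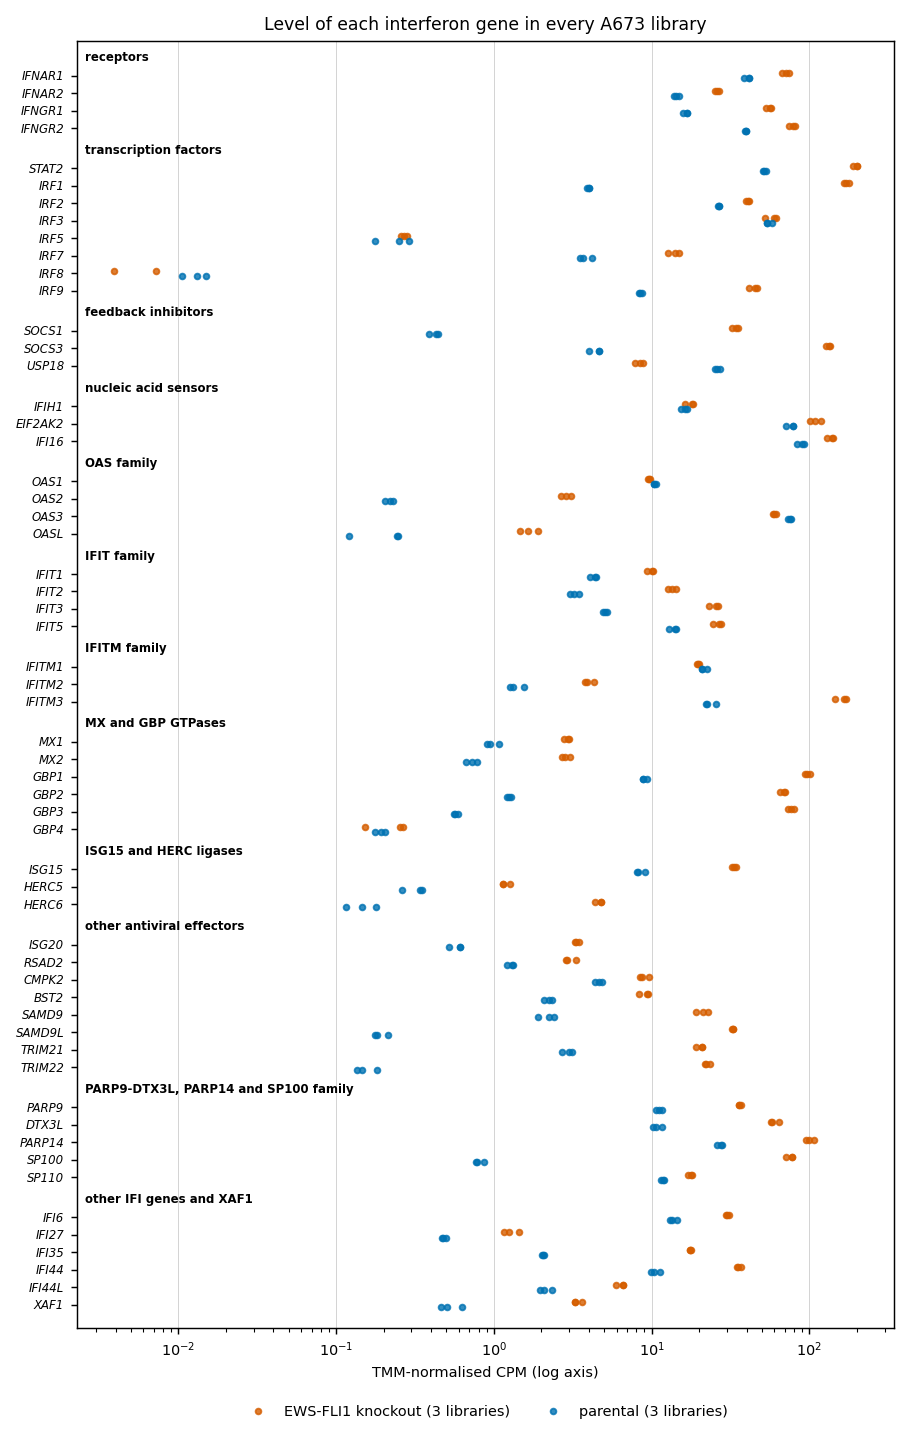
TMM-normalised CPM on a log axis for each interferon gene in the 3 knockout and 3 parental libraries, grouped by role. Knockout points lie right of the parental ones for most genes, and left of them for USP18, OAS3, IFITM1, OAS1 and IRF8. The IRF8 library with a count of 0 is not drawn.

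**Figure D3:**
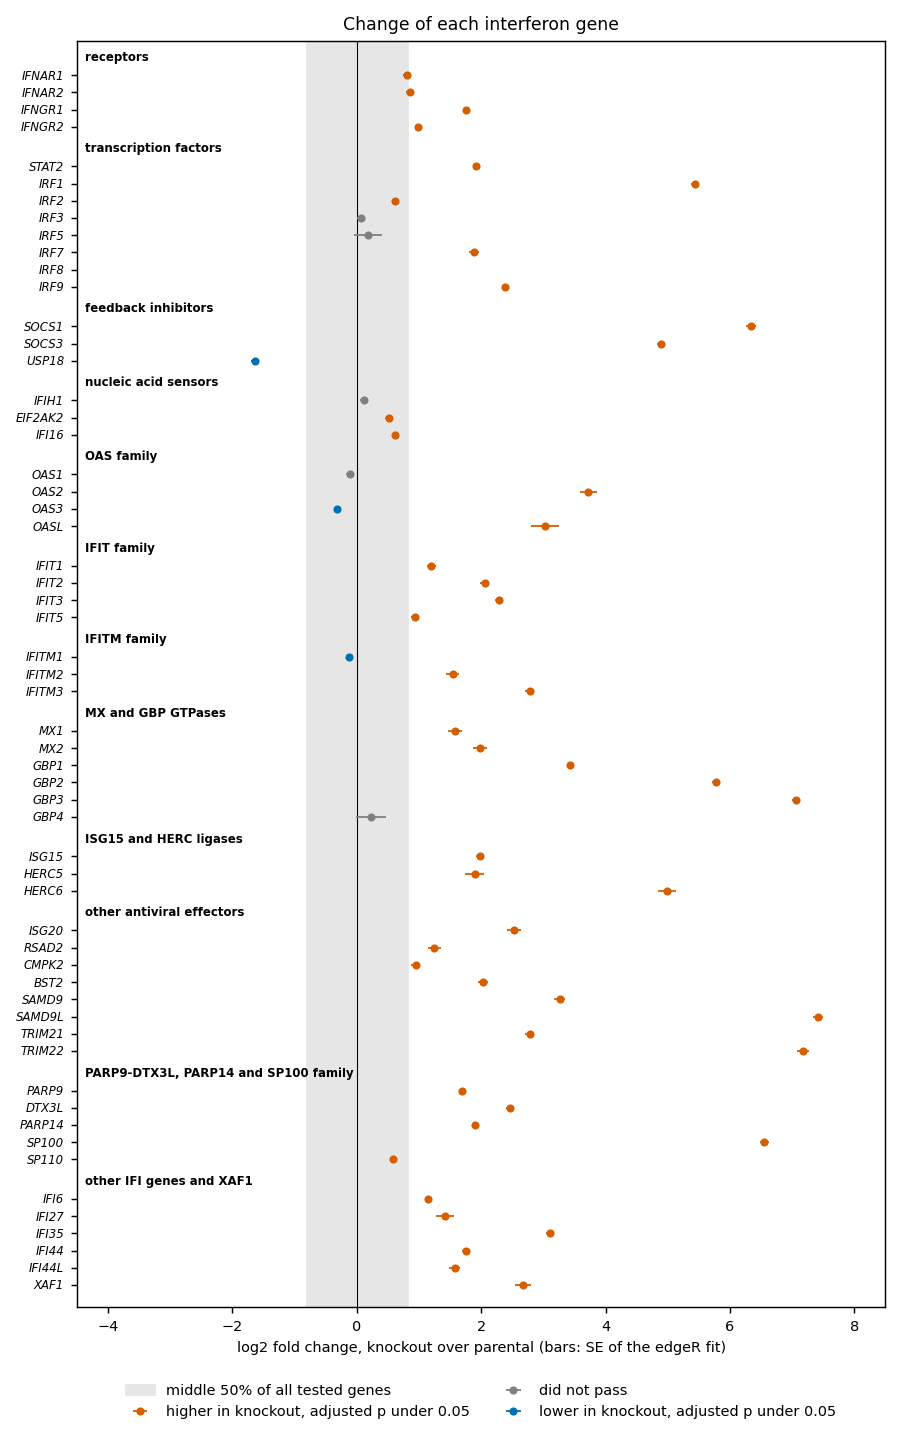
Log2 fold change of each tested interferon gene, knockout over parental, with the SE of the edgeR fit, grouped by role. The grey band holds the middle 50% of all tested genes, from -0.80 to 0.83. The values run from -1.64 for USP18 to 7.42 for SAMD9L.

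Promoter sequences were examined because most of these genes are known for interferon response elements near their start. RefSeq promoter windows (GRCh38.p14, 250 bases before to 50 after an annotated start) matched 45 of the 57 genes by symbol, in 65 windows. The windows were searched on both strands for the response element core, spelled GAAA, 2 bases of any kind and GAAA, and for TTCNNNGAA, the spaced palindrome bound by STAT dimers. The core stood in a window of 27 of the 45 genes (60.0%), against 3.87% of the 15218 tested genes with a window, and in 47.7% of the 65 windows against 3.57% of all 35116 windows. TTCNNNGAA stood in 11 of the 45 (24.4%), against 8.57% of tested genes. A run of 4 GGAA units, a short form of the microsatellites that EWS-FLI1 binds, stood in 0 of the 45 and in 3 of the 15218. Matches were so rare in all genes that 0 of 45 does not set these genes apart. Shorter GGAA runs and bases outside the windows were not searched. Of the 27 genes with the core 23 rose and 2 fell (median log2 fold change 1.75), while of 17 tested genes without it 15 rose and 0 fell, with a median of 1.92. Only the first listed window of each gene had been searched at first, which gave 25 genes with the core and medians of 1.89 with it and 1.76 without. The order of the medians thus turns with the choice of windows, a choice made after values were seen, and no order is read from it. No window was matched for IFNAR2, IRF2, IRF3, IRF7, USP18, OAS2, OASL, IFIT2, IFITM2, MX2, GBP2 and TRIM22.

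**Figure D4:**
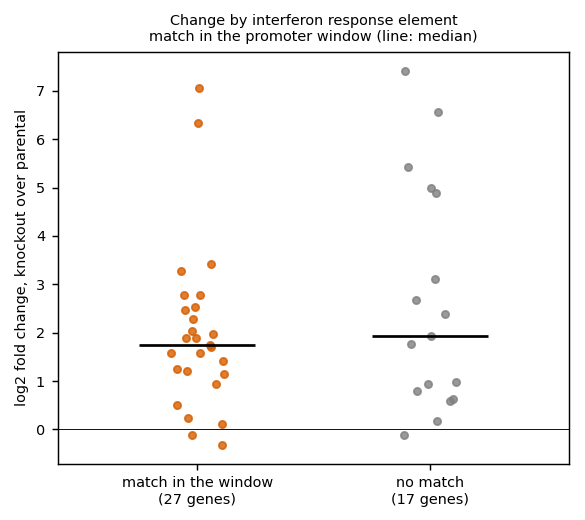
Log2 fold change, knockout over parental, of the 27 tested interferon genes with the response element core in a promoter window (left) and the 17 without (right). Each point is a gene, the line is the median, and both columns span a wide range around medians of 1.75 and 1.92, whose order turns when only first windows are searched.

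The 150 bases before the start are shown for 4 genes, chosen after their values were seen, that span this range: ISG15 and IFIT1, classic interferon targets that rose and carry 2 matches, OAS3, which carries 2 matches and fell, and SAMD9L, which had the largest rise and carries none. Capitals mark the core read on either strand, and each sequence runs 5′ to 3′ on the gene's strand. ISG15 lies on the plus strand of chr1:1013347-1013496, IFIT1 on the plus strand of chr10:89392473-89392622, OAS3 on the plus strand of chr12:112938324-112938473 and SAMD9L on the minus strand of chr7:93148386-93148535.
ISG15: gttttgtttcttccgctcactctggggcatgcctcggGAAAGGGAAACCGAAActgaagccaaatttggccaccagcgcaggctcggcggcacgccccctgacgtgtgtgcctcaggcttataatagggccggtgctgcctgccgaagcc
IFIT1: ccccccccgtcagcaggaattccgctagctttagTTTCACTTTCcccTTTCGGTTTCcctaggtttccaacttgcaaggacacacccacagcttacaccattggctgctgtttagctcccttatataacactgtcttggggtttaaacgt
OAS3: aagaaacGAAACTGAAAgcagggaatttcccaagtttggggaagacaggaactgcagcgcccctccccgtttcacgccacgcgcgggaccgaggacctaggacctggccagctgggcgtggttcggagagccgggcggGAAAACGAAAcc
SAMD9L: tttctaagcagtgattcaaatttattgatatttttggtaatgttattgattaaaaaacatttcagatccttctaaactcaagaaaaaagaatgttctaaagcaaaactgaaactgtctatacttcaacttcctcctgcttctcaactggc
In ISG15 the matches begin at -113 and -107 from the start and share bases, in IFIT1 they begin at -116 and -103 on the opposite strand, and in OAS3 they begin at -143 and -12. A match is a run of letters and not a measured binding site. The search took only the exact spelling and passed over near matches. The SAMD9L stretch holds aaaactgaaa, which differs from the core only in its first letter. A gene without a match may therefore still have a response element.

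All 4 chains of the type I and type II interferon receptors rose, 3 of them by less than 2-fold. Among all tested genes 36.3% rose. IFNGR1, the ligand-binding chain for type II interferon (GRCh38 chromosome 6, bases 137197484 to 137219449), held 56.6, 56.9 and 53.3 CPM in knockout libraries, against 15.8, 16.8 and 16.7 CPM in parental libraries. Its log2 fold change of 1.76 (SE 0.052, adjusted p = 2.81e-18) was the largest of the 4. The signalling chain IFNGR2 held 80.9, 78.8 and 74.1 CPM in knockout and 39.2, 39.6 and 39.8 CPM in parental libraries (0.98, SE 0.049). IFNAR1, a chain of the type I receptor, held 74.1, 70.8 and 67.5 CPM against 38.7, 41.6 and 41.6 CPM in parental libraries (0.80, SE 0.052). IFNAR2, its partner, held 26.0, 26.7 and 25.3 CPM against 13.9, 15.0 and 14.3 CPM in parental libraries (0.85, SE 0.053). In each of the 4 the lowest knockout library lay above the highest parental one, while 76.7% of all tested genes had no overlap. IFNAR2, IFNAR1 and IFNGR2 lie in 1 cluster on chromosome 21, with IL10RB between IFNAR2 and IFNAR1. For IFNAR2, 80.1% of the 31-base words in its GENCODE 29 transcripts also occur in transcripts of another gene, 42.3% in AP000295.1, so its split of reads is uncertain.

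Of the 7 transcription factors tested 5 rose, against 36.3% of all tested genes, with IRF1 far ahead. IRF1, a factor induced by type II interferon (chromosome 5, bases 132481609 to 132490798), held 165.1, 179.1 and 171.6 CPM in knockout libraries, against 4.0, 4.04 and 3.91 CPM in parental libraries. The change was 43.2-fold (log2 fold change 5.43, SE 0.059, adjusted p = 4.55e-26), and 28.5% of its 31-base words are shared, 20.5% with C5orf56. STAT2 and IRF9 act together in the complex downstream of type I interferon. STAT2 held 188.4, 201.3 and 200.2 CPM in knockout and 50.5, 53.1 and 52.0 CPM in parental libraries (1.92, SE 0.050). IRF9 held 41.6, 46.5 and 44.9 CPM in knockout and 8.69, 8.41 and 8.32 CPM in parental libraries (2.39, SE 0.057), and 50.3% of its 31-base words are shared, mostly with AL136295.5. IRF7, which amplifies the production of type I interferon, held 12.8, 14.2 and 14.9 CPM in knockout and 4.17, 3.5 and 3.66 CPM in parental libraries (1.89, SE 0.077). In these 4 genes no knockout library came near the parental range. IRF2, known to counter IRF1 at shared sites, rose less, to 40.6 ± 1.06 CPM in knockout, against 26.6 ± 0.242 CPM in parental cells (SD, n = 3 each; 0.61, SE 0.049).

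Other interferon regulatory factors did not pass. IRF3, which is present before infection and is activated by phosphorylation, held 52.2, 60.1 and 61.4 CPM in knockout and 58.2, 53.6 and 54.3 CPM in parental libraries. The groups overlapped, and the log2 fold change was 0.06 (SE 0.059, adjusted p = 0.335). It was below 0 when scaled by total count (-0.36, adjusted p = 0.000594) and with upper quartile factors (-0.14), and leaving out knockout replicate 1 made it a rise (0.15, adjusted p = 0.0152). IRF5, a factor of macrophages and B cells, held under 0.3 CPM in every library and its groups overlapped (0.18, SE 0.22, adjusted p = 0.483, and -0.25 with total counts only and -0.026 with upper quartile factors).

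The feedback inhibitors moved in opposite directions. SOCS1, which blocks the JAK kinases (chromosome 16, bases 11254405 to 11256200), held 32.3, 34.4 and 35.2 CPM in knockout libraries, against 0.444, 0.386 and 0.429 CPM in parental libraries. That is 80.9-fold higher (log2 fold change 6.34, SE 0.077, adjusted p = 2.58e-25). SOCS3, an inhibitor best known from the signalling of interleukin-6 and related cytokines, held 127.9, 134.7 and 133.9 CPM in knockout and 4.67, 3.99 and 4.66 CPM in parental libraries (4.90, SE 0.067, adjusted p = 2.85e-24). USP18 does the reverse of what most interferon-stimulated genes did here. It encodes the protease that removes ISG15 from proteins and that also binds IFNAR2 to shut off the type I receptor, and it lies on chromosome 22 from 18149899 to 18177397. It held 8.41, 8.84 and 7.89 CPM in knockout libraries, against 27.0, 26.1 and 25.3 CPM in parental libraries, a fall to 0.321 of the parental level (-1.64, SE 0.058, adjusted p = 8.24e-17). All 3 knockout libraries lay far below the parental ones. Of the words in USP18, 28.8% are shared with its near-copy USP41, which held at most 4.52 estimated counts in a knockout and 23.4 in a parental library, set beside means of 2206 in knockout and 10076 in parental libraries for USP18. USP18 was the 1 interferon gene that fell by more than 2-fold, and it did so under every alternative run.

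The 3 sensors of foreign nucleic acid all differed by less than 2-fold. IFI16, a sensor of DNA in nucleus and cytosol, held 139.2, 140.9 and 130.4 CPM in knockout and 84.2, 92.7 and 89.8 CPM in parental libraries (log2 fold change 0.62, SE 0.051, adjusted p = 3.05e-10). EIF2AK2, the kinase PKR that halts translation on binding double-stranded RNA, held 117.9, 108.0 and 101.7 CPM in knockout and 71.3, 79.4 and 78.8 CPM in parental libraries. Its rise of 0.51 (SE 0.058, adjusted p = 1.24e-07) did not pass with total counts only (0.09, adjusted p = 0.159). IFIH1, the RNA sensor MDA5, held 18.3, 17.9 and 16.2 CPM in knockout and 15.4, 16.8 and 16.4 CPM in parental libraries, with overlapping groups (0.11, SE 0.059, adjusted p = 0.101). It passed as higher with DESeq2 size factors (0.14, adjusted p = 0.0463), and also when knockout replicate 3 (0.18) or parental replicate 2 (0.16) was left out. Scaled by total count it passed as lower (-0.32, adjusted p = 0.000164), so no direction can be given for it.

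The OAS family, enzymes that make a second messenger for RNase L on sensing double-stranded RNA, split by member. OAS2 held 3.10, 2.87 and 2.68 CPM in knockout and 0.231, 0.220 and 0.203 CPM in parental libraries (log2 fold change 3.72, SE 0.13, adjusted p = 1.15e-16). OASL, an enzymatically inactive relative that boosts RIG-I, held 1.65, 1.47 and 1.90 CPM in knockout and 0.121, 0.249 and 0.243 CPM in parental libraries (3.03, SE 0.22). Both rose, with wide gaps between the groups. OAS3 fell slightly, to 61.2, 59.2 and 59.3 CPM in knockout libraries, against 76.2, 73.4 and 74.9 CPM in parental libraries (-0.32, SE 0.047, adjusted p = 2.43e-06). OAS1 held 9.83, 9.51 and 9.67 CPM in knockout and 10.4, 10.6 and 10.4 CPM in parental libraries and did not pass (-0.12, SE 0.058, adjusted p = 0.0756), although its groups did not overlap. It passed as lower with total counts only (-0.54), with upper quartile factors (-0.32), with no filter on low counts and with a stricter filter.

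The IFIT proteins, which bind viral RNA and block its translation, all rose. IFIT3 held 26.2, 25.7 and 23.0 CPM in knockout and 4.95, 5.25 and 5.09 CPM in parental libraries (log2 fold change 2.29, SE 0.063, adjusted p = 6.99e-19). IFIT2 held 14.3, 13.6 and 12.8 CPM in knockout and 3.04, 3.48 and 3.23 CPM in parental libraries (2.06, SE 0.071). These were the larger rises of the family. IFIT1, which recognises RNA caps that lack a methyl group, held 10.2, 10.1 and 9.34 CPM in knockout and 4.08, 4.37 and 4.43 CPM in parental libraries (1.2, SE 0.069). IFIT5 held 27.0, 27.5 and 24.7 CPM in knockout and 12.9, 14.4 and 14.1 CPM in parental libraries (0.94, SE 0.059). The 4 genes lie together on chromosome 10, between 89283694 and 89421001, and groups were apart in each.

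IFITM proteins, which sit in membranes and block viral entry, differed from each other. IFITM3 held 171.1, 145.7 and 165.1 CPM in knockout and 25.5, 22.0 and 22.4 CPM in parental libraries (log2 fold change 2.78, SE 0.073, adjusted p = 3.73e-14). IFITM2 held 3.79, 4.34 and 3.92 CPM in knockout and 1.54, 1.28 and 1.32 CPM in parental libraries (1.54, SE 0.10). Both rose. IFITM1 held 19.6, 19.9 and 19.4 CPM in knockout and 22.3, 20.8 and 21.0 CPM in parental libraries, a small difference that just passed as lower (-0.12, SE 0.052, adjusted p = 0.0394). The call was lost in 5 of the 6 fits that left out a library, all but the one without parental replicate 2, and with DESeq2 size factors (-0.10, adjusted p = 0.112), the DESeq2 Wald test and a term for replicate number. Between 35.3% and 56% of the 31-base words of these 3 genes occur in another gene, mainly in each other, so the division of reads among them is uncertain.

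Among interferon-induced GTPases, the guanylate-binding proteins held some of the largest rises. GBP3 (chromosome 1, bases 89006666 to 89022894) held 80.1, 77.0 and 73.2 CPM in knockout libraries, against 0.594, 0.572 and 0.557 CPM in parental libraries. That is 134-fold higher (log2 fold change 7.06, SE 0.071, adjusted p = 1.42e-26). GBP2 held 69.4, 69.7 and 65.3 CPM in knockout and 1.22, 1.24 and 1.29 CPM in parental libraries (5.77, SE 0.064). GBP1, which coats bacteria in the cytosol, held 96.4, 100.9 and 93.5 CPM in knockout and 8.85, 9.31 and 8.84 CPM in parental libraries (3.43, SE 0.055). The 3 genes were low in every parental and high in every knockout library. Their neighbour GBP4 did not pass: it held 0.254, 0.266 and 0.152 CPM in knockout and 0.205, 0.193 and 0.176 CPM in parental libraries (0.23, SE 0.24, adjusted p = 0.411, and -0.20 with total counts only). MX2, a GTPase that restricts HIV, held 2.82, 2.72 and 3.04 CPM in knockout and 0.730, 0.786 and 0.665 CPM in parental libraries (1.98, SE 0.12). MX1, the barrier against influenza, rose to 2.91 ± 0.117 CPM in knockout, against 0.977 ± 0.0900 CPM in parental cells (SD, n = 3 each; 1.57, SE 0.11).

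ISG15, a ubiquitin-like modifier, rose together with the HERC ligases. ISG15 (chromosome 1, bases 1001138 to 1014540) held 34.1, 33.2 and 32.4 CPM in knockout and 9.14, 8.05 and 8.15 CPM in parental libraries (log2 fold change 1.98, SE 0.059, adjusted p = 2.93e-18). HERC5, the main enzyme that attaches ISG15 in human cells, held 1.26, 1.14 and 1.15 CPM in knockout and 0.263, 0.341 and 0.351 CPM in parental libraries (1.89, SE 0.16). HERC6, its neighbour, which takes that role in mice, held 4.76, 4.36 and 4.79 CPM in knockout and 0.179, 0.146 and 0.115 CPM in parental libraries (4.98, SE 0.14, adjusted p = 1.22e-18). All 3 were apart between the genotypes. ISG15 and HERC5 thus stood higher and USP18, which takes ISG15 off again, lower.

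All 8 other antiviral effectors rose, 7 of them beyond 2-fold, against 36.3% and 21.8% of all tested genes. SAMD9L, a restriction factor and growth regulator (chromosome 7, bases 93130055 to 93148369), held 32.8, 32.8 and 32.2 CPM in knockout libraries, against 0.213, 0.183 and 0.176 CPM in parental libraries. At 171-fold (log2 fold change 7.42, SE 0.083, adjusted p = 5.89e-26) its change was the largest of the 56. TRIM22, a ubiquitin ligase that restricts HIV, held 22.1, 23.5 and 21.8 CPM in knockout and 0.137, 0.146 and 0.183 CPM in parental libraries (7.17, SE 0.095). TRIM21, a cytosolic antibody receptor, held 20.8, 21.0 and 19 CPM in knockout and 3.02, 3.13 and 2.70 CPM in parental libraries (2.78, SE 0.070). BST2, or tetherin, which holds budding virus on the cell surface, held 9.29, 9.43 and 8.36 CPM in knockout and 2.33, 2.07 and 2.22 CPM in parental libraries (2.03, SE 0.080). Groups were apart in each of the 8, as they were in 76.7% of all tested genes. The other 4 had log2 fold changes of 3.27 for SAMD9 (SE 0.089), 2.53 for the RNA exonuclease ISG20 (SE 0.12), 1.25 for RSAD2 (viperin, SE 0.11), which makes a chain-terminating nucleotide, and 0.95 for CMPK2 (SE 0.073), which supplies its substrate.

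PARP9, DTX3L and PARP14, which act in ADP-ribosylation, and the nuclear body proteins SP100 and SP110 all rose. SP100 (chromosome 2, bases 230415942 to 230544090) held 77.2, 77.8 and 71.6 CPM in knockout libraries, against 0.867, 0.778 and 0.767 CPM in parental libraries (log2 fold change 6.55, SE 0.071, adjusted p = 4.29e-26). DTX3L, a ubiquitin ligase that pairs with PARP9, held 64.4, 58.0 and 56.9 CPM in knockout and 10.6, 11.6 and 10.3 CPM in parental libraries (2.46, SE 0.062). PARP9 shares its promoter region head to head with DTX3L, and held 36, 36.7 and 35.9 CPM in knockout and 10.7, 11.7 and 11.1 CPM in parental libraries (1.70, SE 0.053). The groups were far apart in these 3. PARP14 held 106.9, 99.7 and 95.9 CPM in knockout and 25.8, 27.9 and 27.4 CPM in parental libraries (1.90, SE 0.054). SP110 rose less, to 17.7 ± 0.486 CPM in knockout, against 11.8 ± 0.239 CPM in parental cells (SD, n = 3 each; 0.58, SE 0.055).

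The remaining genes, IFI genes and XAF1, rose by 1.14 to 3.10 on the log2 scale. IFI35, a regulator of RIG-I signalling, held 17.6, 17.7 and 17.6 CPM in knockout and 2.08, 2.04 and 2.03 CPM in parental libraries (log2 fold change 3.10, SE 0.063, adjusted p = 2.80e-21). IFI44 held 36.7, 34.9 and 35.3 CPM in knockout and 9.94, 11.4 and 10.4 CPM in parental libraries (1.75, SE 0.058). IFI6, an endoplasmic reticulum protein that limits flavivirus replication, held 31, 30.0 and 29.7 CPM in knockout and 14.4, 13.5 and 13.1 CPM in parental libraries (1.14, SE 0.054). In none of them did the groups overlap. XAF1, an antagonist of the apoptosis inhibitor XIAP, held 3.29, 3.30 and 3.62 CPM in knockout and 0.633, 0.508 and 0.464 CPM in parental libraries (2.67, SE 0.13), and 36.6% of its words are shared, nearly all with PRAL. IFI44L and IFI27 changed by 1.58 (SE 0.089) and 1.42 (SE 0.14).

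Parental levels of some of the genes with the largest rises were close to the lowest shares that abundant genes had. Among the 3251 genes that averaged 20000 counts or more in knockout libraries, the 20 that kept least in parental libraries kept a median of 0.586% of the knockout count. In parental libraries SAMD9L kept 0.854%, TRIM22 1.01%, GBP3 1.10% and SP100 1.56% of their knockout counts, so for the first 3 the parental level lay within 1.87 times that share. SOCS1, GBP2 and IRF1, the interferon genes with the next largest rises, kept more, at 1.81%, 2.69% and 3.39%. Of SAMD9L, TRIM22, GBP3 and SP100, only GBP3 belongs to the set of abundant genes. SAMD9L, TRIM22 and SP100 averaged 8586, 5919 and 19876 counts in knockout libraries, under its limit. Whether parental counts at that level are transcripts of parental cells was not tested. The folds of SAMD9L, TRIM22, GBP3 and SP100 carry that uncertainty beside their SE. So do those of EPSTI1 and APOL1, described below, which kept 0.599% and 1.42%. In the other direction, 3990 genes averaged 20000 counts or more in parental libraries. The 20 that kept least in knockout libraries kept a median of 0.617%. The fall of IFNLR1, described below, to a mean of 9.36 counts in knockout from 886 in parental libraries carries a like uncertainty.

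The changes of neighbouring interferon genes were set beside those of neighbouring genes in general, although the pairs were not formed alike. By a rule set after values were seen, there were 20 adjacent pairs of tested interferon genes under 200 kb apart, holding 32 of the genes, and in 10 pairs (50%) the log2 fold changes lay more than 1 apart and in 8 (40%) more than 2. Over 24317 adjacent pairs of tested genes with a GENCODE position, counted by the same distance, 49.7% lay more than 1 apart and 27.2% more than 2, and the median difference was 0.93 in the interferon pairs and 0.99 in all pairs. Among 14827 adjacent pairs of protein-coding genes the shares were 52.7% and 30.98%. Interferon pairs were adjacent among interferon genes only, so other tested genes may lie between them, as IL10RB does between IFNAR2 and IFNAR1. Background pairs were immediate neighbours within their set. The pairs are thus not matched, and the spread within clusters is given as a description only. SP110 and SP100 differed most, by -5.97 (SP110 minus SP100). The log2 ratio of SP110 to SP100 was -2.10 ± 0.0265 in knockout and 3.88 ± 0.125 in parental libraries (SD, n = 3 each). GBP2 and GBP4 differed by 5.54, SAMD9 and SAMD9L by -4.15, OAS3 and OAS2 by -4.05, GBP3 and GBP1 by 3.63, and HERC6 and HERC5 by 3.09. Other pairs differed less: IFI44L and IFI44 by -0.17, IFIT2 and IFIT3 by -0.23, and CMPK2 and RSAD2 by -0.30. Within the IFIT cluster IFIT3 and IFIT1 differed by 1.09. In 18 of the 20 pairs the ratios in knockout libraries did not overlap those in parental libraries. An exact two-sided permutation test of the ratio between libraries gave p = 0.1 in each (adjusted p = 0.111 over the pairs). That is the smallest p that 3 against 3 allows, so no pair could pass the threshold by this test. The test only restates the lack of overlap. No share of such pairs is given for all adjacent pairs, and no conclusion is drawn from the 18.

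**Figure D5:**
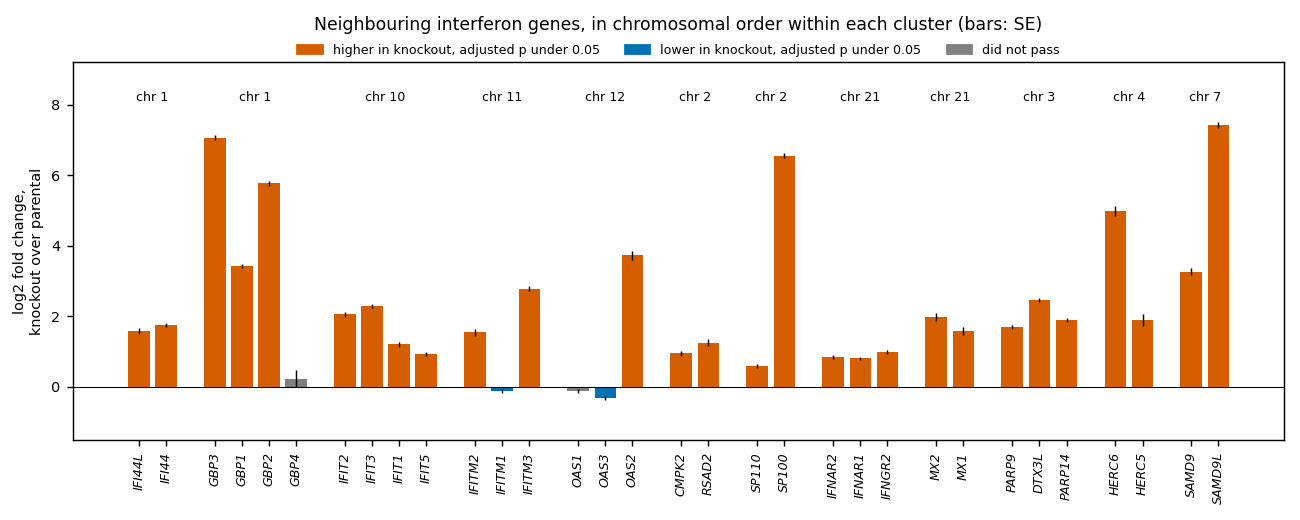
Log2 fold change, knockout over parental, with SE, of interferon genes that lie under 200 kb from another, in chromosomal order within each cluster. Adjacent plotted genes of the MX, receptor and PARP9 clusters differ by less than 1, while the GBP, OAS, IFITM, SP, HERC and SAMD9 clusters hold adjacent genes that differ by more than 2.

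Interferon transcripts themselves were nearly absent from both genotypes. Of 21 interferon ligand genes 14 held 0 counts in all 6 libraries, where 3 counts correspond to 0.0109 to 0.0117 CPM in a knockout and 0.00752 to 0.00794 CPM in a parental library. IFNB1, interferon beta, held 0, 1 and 1 counts in knockout and 1, 0 and 0 counts in parental libraries. IFNG, interferon gamma, was among the genes at 0. IFNE, interferon epsilon, a type I interferon best known from epithelium of the reproductive tract, was the exception and the 1 ligand that could be tested. It held 39, 59 and 55 counts in knockout and 0, 0 and 1 counts in parental libraries, a ratio of 224 at equal library size (95% exact conditional interval 39.6 to 8905, counting error only, edgeR adjusted p = 5.80e-10). Its level stayed low, at 0.153 to 0.228 CPM in knockout libraries. No other ligand passed 9.62 estimated counts in a library, the highest being IFNA1, at 7.36 to 9.62 in knockout and 0 to 1 in parental libraries.

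Other receptor chains, kinases and regulators did not move as a block. Of 7 such genes 3 (42.9%) rose, 2 fell and 2, TYK2 and PIAS1, did not pass. Among all tested genes 36.3% rose and 37.5% fell, so the share that rose lies near the background. The median log2 fold change of the 7 genes was 0.080. JAK2, the kinase of the type II receptor, held 38.1, 36.4 and 34.2 CPM in knockout and 3.40, 3.44 and 3.72 CPM in parental libraries (3.36, SE 0.063, adjusted p = 4.94e-22). JAK1, which both receptor types use, fell to 211.0, 198.5 and 189.0 CPM in knockout libraries, against 708.5, 724.4 and 738.7 CPM in parental libraries (-1.86, SE 0.052). The kinases thus moved in opposite directions, and no library of one genotype lay in the range of the other. IFNLR1, the specific chain of the type III receptor, fell to 0.0469, 0.0309 and 0.0290 CPM in knockout, against 2.11, 2.39 and 2.39 CPM in parental libraries (-6.00, SE 0.19), while IL10RB, its partner chain, rose by 1.23 (SE 0.056). PTPN2, a phosphatase that acts on JAK kinases, just passed as higher (0.16, SE 0.053, adjusted p = 0.0103) and passed as lower when scaled by total count (-0.26, adjusted p = 0.000213).

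Of 13 genes of nucleic acid sensing upstream of interferon 9 (69.2%) rose, 1 (STING1, -0.41, SE 0.054) fell and 3 did not pass. Among all tested genes 36.3% rose and 37.5% fell. The median log2 fold change of the 13 genes was 1.46. RIGI, the RNA sensor RIG-I, held 41.9, 42.4 and 39.9 CPM in knockout and 4.11, 4.93 and 4.04 CPM in parental libraries (3.25, SE 0.071), unlike its relative IFIH1 above. IKBKE, a kinase that activates IRF3 and IRF7, rose by 4.49 (SE 0.066) to 28.5 ± 0.486 CPM in knockout, against 1.27 ± 0.0627 CPM in parental cells (SD, n = 3 each). TLR3, a receptor for double-stranded RNA in endosomes, and its adaptor TICAM1 rose by 1.96 (SE 0.086) and 1.46 (SE 0.058), and DHX58, a relative of RIG-I, by 2.25 (SE 0.089).

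Of 37 other interferon-stimulated genes 36 were tested, of which 29 (80.6%) rose, 4 fell and 3 did not pass. Among all tested genes 36.3% rose and 37.5% fell. The median of the 36 was 1.78, also with RTP4, at 0 in every parental library, set to its bound of at least 90.3-fold over a floor of 3 counts in the group. Beyond 2-fold 26 rose (72.2%) and 2 fell, against 21.8% and 20.3% of all tested genes. EPSTI1, whose parental libraries held 9 to 18 counts, rose by 7.92 (SE 0.15), APOL1, the trypanosome-killing apolipoprotein, by 6.69 (SE 0.095), PARP10 by 4.51 (SE 0.069), TRIM14 by 4.35 (SE 0.076), and the peptide transporter TAP1 by 3.83 (SE 0.055) to 121.7 ± 3.09 CPM in knockout, against 8.54 ± 0.344 CPM in parental cells (SD, n = 3 each). The 4 that fell were LAMP3 (-3.43), CXCL10 (-1.27), PNPT1 (-0.42) and LY6E (-0.39), and CXCL10, a chemokine that many cells release on interferon, held at most 11 counts in a knockout and 26 in a parental library.

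Markers of blood cells, which express many of these genes, were examined in the same libraries. Among all tested genes 36.3% rose and 37.5% fell. Of 15 leukocyte markers 3 rose (33.3% of those tested), 4 fell, 2 did not pass and 6 were too low to test, CD2 and MS4A1 being at 0 in all 6 libraries. Their summed level was 2.94 to 3.42 CPM in knockout and 13.1 to 15.7 CPM in parental libraries, most of the parental sum from CD79A (11.9 to 14.3 CPM in parental libraries). PTPRC, the pan-leukocyte marker CD45, held 1.33 to 1.64 CPM in knockout and 0.101 to 0.155 CPM in parental libraries. Of 6 endothelial markers 4 (66.7%) rose and 1 fell, summing to 10.6 to 11.8 CPM in knockout and 0.634 to 0.743 CPM in parental libraries, mostly from PECAM1, while CDH5 held at most 0.177 CPM in any library. Their part in the interferon gene values was not tested. In bulk RNA, more cells with a transcript and more transcript per cell cannot be told apart.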

How the data were processed

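Oligo d(T) beads selected mRNA, which was sequenced on a NovaSeq instrument, per the labels' protocols. The authors deposited 1 table of estimated counts per gene. Per the submitters' processing notes it was made with kallisto 0.48.0 on hg38, while the annotation release and the way transcripts were summed to genes are not stated. Strand is not stated, so reads of overlapping antisense genes may not be told apart. Estimated counts were rounded to whole numbers for edgeR 4.0.16 under R 4.3.3 (filterByExpr with minimum count 10 and minimum total 15, TMM factors, robust quasi-likelihood fit, genotype as the only term, two-sided, Benjamini-Hochberg adjusted over 28485 genes). SE is the size of the log2 fold change divided by the square root of F. The biological coefficient of variation was 7.53%, and 3 counts correspond to 0.00752 to 0.0117 CPM, a limit for counting error only. Replicates within a genotype differed beyond sampling noise (chi-square per degree of freedom 11.1 to 78.1). The steps were tested on simulated counts. The first recovery target, which covered genes of any count, was missed at a 2-fold change, and the target was then limited to well-counted genes at that size. The fit itself was not altered.

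The interferon genes and the other lists were chosen with earlier results of these data known. Values by library are given for up to 4 genes of each role with the smallest adjusted p, and for genes added after their values were seen (GBP4, IRF3). Of the other lists, up to 5 genes with the smallest adjusted p are named, with IFNB1. The remaining names there (STING1, IFNA1, IFNG, RTP4, TYK2, PIAS1 and the genes that fell) were added after their values were seen. Gene positions and 31-base words, the word length kallisto uses by default, come from GENCODE 29 (GRCh38), which may differ from the authors' index. Promoter sequences come from RefSeq (GRCh38.p14). The promoter windows counted, the 4 promoters printed and the rule for neighbouring pairs, which replaced a set of pairs picked by hand, were chosen after values were seen, as was the background of all adjacent pairs. Alternatives used DESeq2 1.42.0 and limma 3.58.1, other scalings and filters, a term for the replicate number, and each library left out. A gene of the pathway is not reported here, and the list it stood in was counted without it.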

Additional observations from a re-analysis of the deposited data

How the results depend on the processing

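The 48 interferon genes that rose numbered 47 to 49 and the 39 beyond 2-fold 35 to 40 over all alternatives. Of the single-gene values recomputed, 981 kept direction and side of the threshold, 9 lost and 8 gained the call, and 9 changed sign. With total counts only, 6 interferon genes fell in place of 3, as did 5 receptor chains, kinases and regulators in place of 2 and 2 sensing genes in place of 1, and the values that changed sign were IRF3 (-0.36), IRF5 (-0.25), IFIH1 (-0.32), GBP4 (-0.20) and PTPN2 (-0.26). With upper quartile factors 4 receptor chains, kinases and regulators fell, and IRF3 (-0.14), IRF5 (-0.026), IFIH1 (-0.10) and PTPN2 (-0.044) changed sign. These follow from scaling that moves all genes down by 0.42 or 0.20. With no filter on low counts 2 interferon ligands rose, and with a filter of 50 counts in 3 libraries 0 were left to test. Leaving out each library gave 48 to 49 risen and 2 to 3 fallen interferon genes. The labels do not say that replicate numbers mark a shared culture or batch, so the main fit did not read them as pairs. Same-numbered libraries also did not deviate together (correlations of -0.019, -0.020 and -0.0055). A replicate block gave 48 risen and 2 fallen, and 20418 calls in place of 21015 over all genes. In an alternative chosen after seeing the data, searching only the first promoter window of each gene gave medians of 1.89 with the core and 1.76 without, against 1.75 and 1.92 over all windows.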
